A study of Mus musculus with 6 samples.

Results

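The Fam19a genes, also called Tafa, encode a family of small secreted proteins made mainly by neurons, and their transcripts were followed here in the prefrontal cortex of mice with a mutated Cyfip2. The 5 members, Fam19a1 to Fam19a5, were found by matching gene identifiers to symbols, and all 5 were among the 17889 rows of the deposited table. All mice were C57BL/6J and at postnatal day 28. There were 3 wild-type samples (WT) and 3 samples that the titles call Hetero and whose genotype is given as Cyfip2 mutant. Stranded poly(A) libraries were sequenced, and the deposited values per gene are called normalized counts here, since they are not whole and sum to nearly the same total in each library, and no source used here states their scaling. The labels give neither the mutated part of Cyfip2 nor whether each sample was a separate animal, so p-values reflect only how these samples vary, in part perhaps for technical reasons.

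FAM19A proteins carry conserved cysteines and are distantly related to CC chemokines. Several of them, FAM19A1 to FAM19A4, have been reported to bind neurexins, presynaptic adhesion molecules, and to affect the heparan sulfate chains that neurexins carry. Receptors have also been proposed for single members, among them GPR1 for FAM19A1, FPR1 for FAM19A4 and S1PR2 for FAM19A5. Mice without FAM19A2 have been reported to show altered neuronal survival and memory.

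The family was proposed with the comparison of Hetero and WT in view, because Fam19a2 had the smallest limma p of the genes with a higher fitted value in Hetero. The values of Hetero against WT for the 5 members are therefore given as a description, with no test, and the size for Fam19a2 was picked out from many genes. The levels of the members relative to each other were not used in that choice and were tested. The pairs tested are neighbours in the order of mean level in these same libraries, so the data set the pairs and their direction.

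How far the 5 messages differ in sequence bears on whether reads can be assigned to one of them, so the best conserved stretch of the coding sequences is shown. The lines give 90 bases of the coding sequences of 4 members, 5′ to 3′ on the coding strand, from the GENCODE M21 transcripts (GRCm38). Capitals mark bases identical in these 4 members, which are 47 of the 90.
Fam19a1: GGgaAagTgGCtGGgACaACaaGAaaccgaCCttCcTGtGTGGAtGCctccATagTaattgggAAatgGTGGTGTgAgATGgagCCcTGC
Fam19a2: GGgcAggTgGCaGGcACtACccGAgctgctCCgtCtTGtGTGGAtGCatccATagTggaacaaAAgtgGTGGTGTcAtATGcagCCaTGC
Fam19a3: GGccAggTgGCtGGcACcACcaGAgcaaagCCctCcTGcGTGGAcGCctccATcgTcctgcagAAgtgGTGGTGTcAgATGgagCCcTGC
Fam19a5: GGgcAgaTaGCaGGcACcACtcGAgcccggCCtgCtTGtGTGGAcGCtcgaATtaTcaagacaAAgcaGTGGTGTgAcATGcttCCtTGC
The stretch starts at coding base 214 in Fam19a1, 226 in Fam19a2, and 217 in Fam19a3 and Fam19a5.

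The coding sequences are short and alike in length, from 396 bases in Fam19a3 and Fam19a5 to 405 bases in Fam19a2 and Fam19a4, stop codon not counted. Over the whole alignment of the same 4, 113 of 433 columns were identical. In pairs, the coding identity was highest between Fam19a3 and Fam19a4, at 73.5%, and lowest between Fam19a2 and Fam19a5, at 58.1%. The longest run of bases shared by the longest coding transcripts of a pair was 21 bases, between Fam19a1 and Fam19a3. Fam19a2 shared at most 14 bases in a row with any other member.

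All members except Fam19a3 are spread over long loci (GRCm38, GENCODE M21). Fam19a1 lies on chromosome 6 from 96113154 to 96657198 on the plus strand, a span of 544045 bases. Fam19a4 follows on the same chromosome from 96831203 to 97060413 on the minus strand, so the pair converges with a gap of 174004 bases. Fam19a2 lies on chromosome 10 from 123263996 to 123741204 on the plus strand, and its longest coding transcript has 6 exons and 4364 bases. Fam19a5 lies on chromosome 15 from 87544299 to 87759364 on the plus strand. Fam19a3 is the compact member, on chromosome 3 from 104767406 to 104781840 on the minus strand, and its first 785 bases overlap Ppm1j on the other strand.

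Column totals lay between 29879143 and 30735443. Depth was estimated from steps between low values, at about 25500000 reads in WT sample 3 up to 43900000 in Hetero sample 3. Cyfip2, checked first, had a mean of 29977 ± 2260 in WT against 20160 ± 1630 in Hetero (SD, n = 3 each), without overlap. Markers of cortical excitatory neurons were present in every library, with 6 of 6 markers measured and a summed normalized count of 72329 to 75829 in WT and 68257 to 71922 in Hetero. Of the table's genes, 14969 had a mean of at least 10 over the 6 samples and were tested with limma on log2(value + 1). At a Benjamini-Hochberg adjusted p under 0.05, limma called 0 genes higher and 0 lower in Hetero, which is 0% in each direction, and with voom weights it called 0 and 0 as well. Without adjustment 573 genes had a p under 0.05, of which 248 were higher (1.66% of those tested) and 325 lower (2.17%). Of the members, 4 passed the filter. Fam19a4 lay just inside it with a mean of 10.9, and Fam19a3 lay well below it with 5.24.

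The first question was which members the prefrontal cortex expresses. Levels between genes were compared as normalized counts per kilobase of the longest coding transcript. Fam19a5 was the most abundant member, at 1170 ± 22.4 per kilobase over the 6 libraries (SD, n = 6). Fam19a1 followed at 327 ± 31.8 (SD, n = 6). The level of Fam19a2 was 160 ± 12.8 for WT libraries and 236 ± 9.76 for Hetero libraries (SD, n = 3 each), or 198 ± 42.6 over all 6 libraries (SD). Fam19a4 read 4.97 ± 1.46 per kilobase (SD, n = 6), and Fam19a3 lay between 0 and 4.41. The cortex transcript pool of the family thus held 3 clearly measured members and 2 members with few reads. By mean normalized count, from the highest, Fam19a5 ranked 2157, Fam19a1 5626 and Fam19a2 6395 among the 14969 tested genes.

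Neighbours in this order differed in each of the 6 libraries. Fam19a5 exceeded Fam19a1 by 3.59-fold (geometric mean of the ratio per kilobase; 3.17 to 4.0 over libraries). Fam19a1 exceeded Fam19a2 by 1.68-fold over all libraries, which is 1.90 to 2.11 in WT and 1.28 to 1.54 in Hetero. Fam19a2 exceeded Fam19a4 by 40.6-fold, with 23.2 to 30.6 for WT libraries and 48.1 to 87.3 for Hetero libraries. The pooled values of both pairs with Fam19a2 thus lie between 2 groups that do not overlap, and the tests ask only for the order of the members. The size for Fam19a4 also rests on the length used, at 98.3-fold with the union of exons and 80.9-fold with the coding length. For each of these 3 pairs the exact two-sided sign-flip permutation test over 6 libraries gave p = 0.03125, the smallest that its 64 assignments allow, also after Benjamini-Hochberg adjustment over the 3 pairs. Fam19a3 was listed at 0 in WT sample 3 and was not tested against Fam19a4. With the coding length in place of transcript length, Fam19a1 exceeded Fam19a2 by 1.27-fold, in 5 of 6 libraries, with an adjusted exact permutation p of 0.0625, so the call for this pair, though not the order of the means, depends on the length.

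Shares of the family were computed from the same values per kilobase. Fam19a5 made up 71.2%, 72.4% and 68.9% of the family in WT samples 1 to 3 and 67.5%, 67.6% and 65.5% in Hetero samples 1 to 3. Fam19a1 made up 19.2% ± 1.48 (WT) and 19.2% ± 1.34 (Hetero; SD, n = 3 each). Fam19a2 made up 9.78%, 9.08% and 9.89% in WT and 13.3%, 14.1% and 13.4% in Hetero. The shares of Fam19a1 overlapped, and those of Fam19a2 and Fam19a5 did not. A higher Fam19a2 lowers the share of Fam19a5 by construction, and the Fam19a2 values are those for which the family was chosen. With Fam19a2 left out of the total, Fam19a5 made up 76.5% to 79.6% in WT and 75.7% to 78.6% in Hetero, and the groups overlapped. Fam19a4 stayed at or below 0.421% and Fam19a3 at or below 0.245% in every library. The family total was 1670 ± 59.2 per kilobase for WT and 1732 ± 61.7 for Hetero (SD, n = 3 each), a ratio of 1.04, and its groups overlapped.

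**Figure D1:**
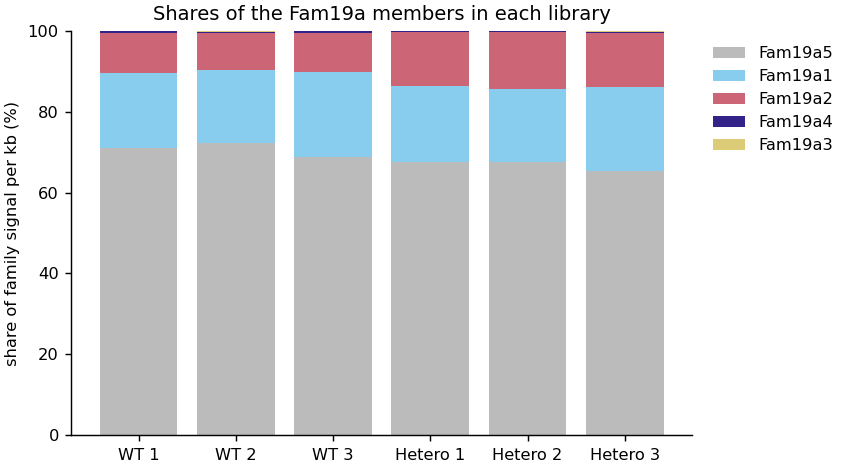
Share of each Fam19a member (y axis, percent of the summed normalized count per kilobase of the family) in each of the 6 libraries (x axis); each bar is a library. Fam19a2 takes 9.08% to 9.89% in WT and 13.3% to 14.1% in Hetero, and Fam19a4 and Fam19a3 are slivers at the top.

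The second question was how each member compared between Hetero and WT. Fam19a2 read 719, 636 and 742 normalized counts in WT samples 1 to 3 and 980, 1052 and 1055 in Hetero samples 1 to 3. All 3 Hetero libraries lay above all 3 WT libraries, and the lowest Hetero value was 1.32 times the highest WT value. It was the 1 member of the 4 tested with this separation upward, which 4.4% of all tested genes showed (8.72% were separated in either direction). The means were 699 ± 55.9 for WT and 1029 ± 42.6 for Hetero (SD, n = 3 each), which is 1.47-fold or 0.56 ± 0.08 (SE) on the log2 scale. About 530 to 1550 reads stood behind each value, for which counting alone gives an SD of 2.54% to 4.34%. Within groups the values varied by 8.0% in WT and 4.14% in Hetero.

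Fam19a2 can also be read against its paralogs within each library, where the scaling between libraries drops out. The ratio of Fam19a2 to Fam19a1 values, not set per length, was 0.705, 0.673 and 0.635 in WT and 0.951, 1.05 and 0.871 in Hetero. The ratio of Fam19a2 to Fam19a5 values was 0.226, 0.207 and 0.236 in WT and 0.325, 0.343 and 0.338 in Hetero. These ratios reuse the Fam19a2 values for which the family was chosen, over 2 members whose groups overlapped, so they describe the same difference on another scale and are no separate evidence of it.

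Fam19a5, the main member of the family in this tissue, read 3176, 3077 and 3139 in WT and 3012, 3064 and 3126 in Hetero. The groups overlapped, and the spread within groups was small, 1.60% in WT and 1.86% in Hetero, where counting alone gives 1.48% to 1.97%. The log2 change was -0.03 with a 95% interval of -0.14 to 0.09. On the log2 scale the within-group SD of Fam19a5 was 0.025, against a median of 0.078 for the 3361 tested genes within 2-fold of its mean normalized count.

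Fam19a1 read 1020, 944 and 1168 in WT and 1031, 1006 and 1211 in Hetero. The highest value of each group was that of sample 3, and the groups overlapped. The log2 change was 0.05 with a 95% interval of -0.17 to 0.28. Its sign rested on single libraries, since it was -0.02 without WT sample 2 and -0.03 without Hetero sample 3. The within-group SD of Fam19a1 was 0.15 on the log2 scale, above the median of 0.094 for the 4964 genes within 2-fold of its mean.

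Fam19a4, a member known from sensory neurons, read 15.5, 12.1 and 12.1 in WT and 10.2, 9.25 and 6.07 in Hetero. All 3 Hetero libraries lay below all 3 WT libraries, which 4.32% of tested genes showed. Its log2 change of -0.60 ± 0.35 (SE) became -0.37 with a pseudocount of 8. These values rest on very few reads, an estimated 8.9 in each Hetero library and 18.2, 10.1 and 10.1 in WT samples 1 to 3. Counting alone then gives an SD of 23.5% to 33.5% per library. Hetero sample 3, with the lowest value, had the most estimated reads in all, so a like number of Fam19a4 reads was a smaller part of them. The reason was not tested.

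Fam19a3 read 2.64, 5.57 and 0 in WT and 1.77, 2.41 and 19.0 in Hetero. The single higher value, in Hetero sample 3, stood on about 28.0 reads, against at most 4.65 in any other library. Ppm1j, which overlaps the start of Fam19a3 on the opposite strand, was also highest in Hetero sample 3, at 18.8, against 3.41 to 9.60 elsewhere; it was named after its values were seen. Whether reads of one locus were assigned to the other was not tested.

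**Figure D2:**
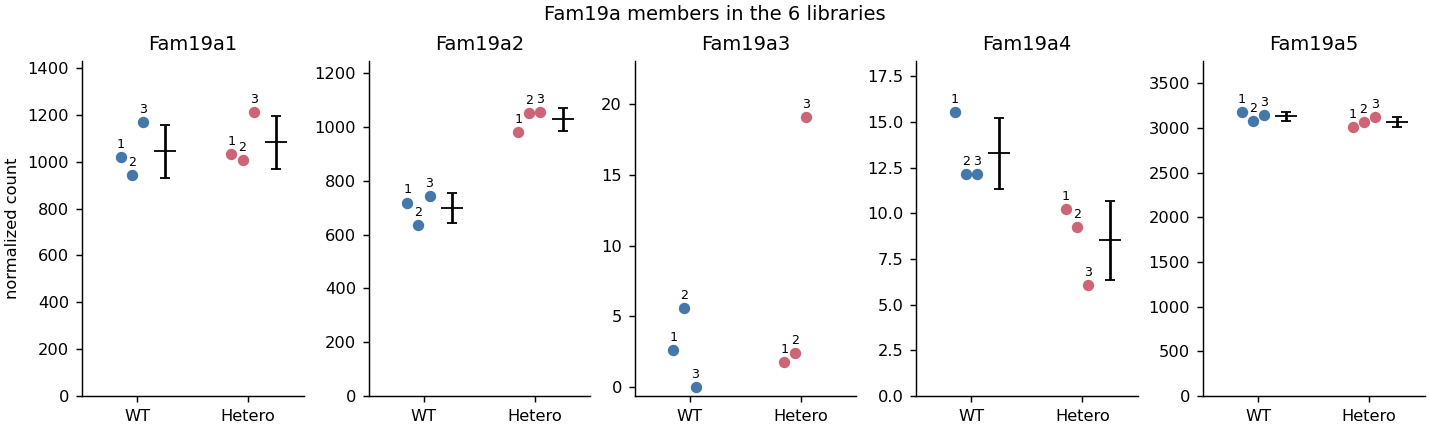
Normalized counts (y axis, a separate linear scale per panel) of the 5 Fam19a members in WT and Hetero; numbered points are the samples, and the bar beside them is the mean ± SD (n = 3), left out for Fam19a3, which has a value listed at 0. The Fam19a2 values of Hetero (980 to 1055) lie above those of WT (636 to 742), Fam19a1 and Fam19a5 overlap, and Fam19a4 and Fam19a3 lie below 20 in every library.

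Markers of cortical cell types were read in the same comparison, where none passed limma's adjusted threshold, and in bulk tissue fewer cells of a type and less RNA per cell cannot be told apart. Deep-layer neuron markers summed to 18667 to 19696 in WT and 16020 to 17184 in Hetero, with 10 of 11 fitted lower, among them Crym (-0.62), a thyroid hormone binding protein, and Sulf2 (-0.23), a heparan sulfate sulfatase. Upper-layer markers had 8 of 9 fitted higher, but their sums overlapped (27934 to 30309 in WT, 30028 to 33529 in Hetero). Oligodendrocyte precursor markers, with 6 of 6 fitted lower, summed to 6950 to 8048 in WT and 5830 to 6577 in Hetero, with Gpr17 at -0.25 and Neu4 at -0.33. The excitatory neuron sums did not overlap either, with Slc17a7, the vesicular glutamate transporter, at -0.10 and Neurod6 at -0.12. Sums of the striatal, interneuron, oligodendrocyte, astrocyte, microglia, endothelial, meningeal, thalamic and hippocampal lists overlapped, and no marker was at 0 in all libraries. Among these, the meningeal list had 6 of 6 fitted higher, a median log2 change of 0.28, and sums of 3787 to 5536 for WT against 4164 to 5987 for Hetero. Its gene Slc47a1, at 1.08 ± 0.38 (SE), was the 1 meningeal marker with all Hetero libraries above all WT libraries. It was named after its values were seen. Of the other lists with overlapping sums, the upper-layer list had 2 markers separated upward and the interneuron list 2. The astrocyte list had 1 marker separated downward and the hippocampal list 1. Separation upward was shown by 4.4% of all tested genes and separation downward by 4.32%. The microglia list had 6 of 6 fitted lower, with a median of -0.09. The part of these differences in the values of Fam19a2 was not tested, nor was how often the sums of other gene lists separate.

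The genes whose pattern over the 6 libraries was most like that of Fam19a2 were found by the root mean square difference of log2 deviations from each gene's mean, among protein coding genes with a mean of at least 100. The closest 2 were Pip5kl1 (0.076 log2 units) and Col26a1, a collagen (0.11), where the median over all tested genes was 0.31. Pip5kl1 had means of 193 ± 5.20 and 292 ± 20.3 in WT and Hetero, and Col26a1 323 ± 34.9 and 461 ± 53.1 (SD, n = 3 each). Likeness to a gene with separated groups selects genes with separated groups, so these values are a description. Fam19a1 was matched most closely by Csrnp2 (0.014), Mical2, an actin-oxidizing enzyme (0.015), and Map3k11, a kinase of the JNK pathway (0.020), against a median of 0.17. These 3 genes too were highest in sample 3 of each group. Fam19a5 was matched by Slc25a46, a mitochondrial carrier (0.0074), Pak1ip1 (0.0093) and Cnot9, a subunit of the CCR4-NOT complex (0.010), against a median of 0.11. The deviations of Fam19a5 itself had a root mean square of 0.025, so any gene with little variation lies close to it. The named matches of every member are the closest of many genes, so these values too are a description. For the few reads of Fam19a4 the closest genes were Acer3 (0.079), a ceramidase, Gm38393 (0.13) and Gm14399 (0.13), against a median of 0.40.

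**Figure D3:**
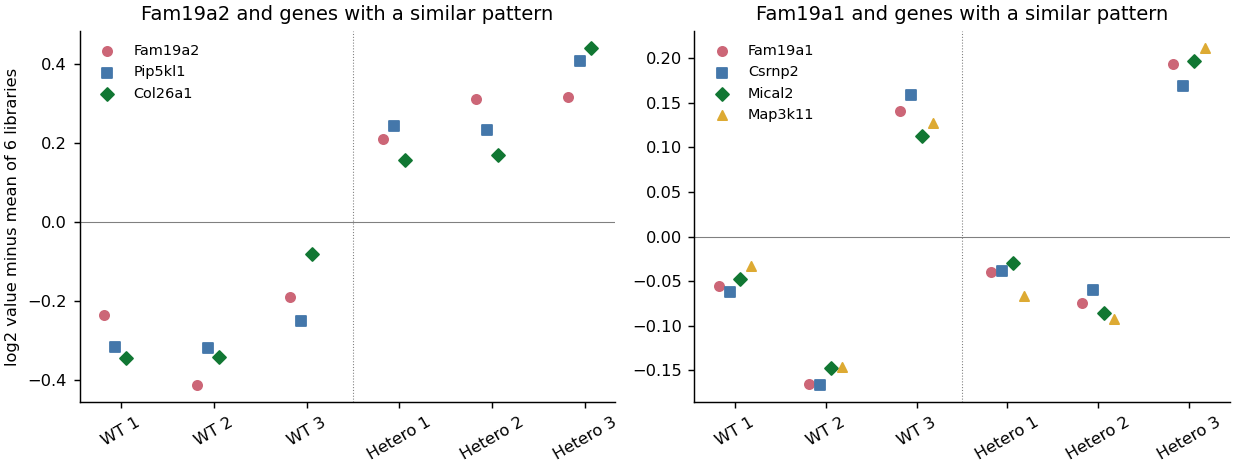
Deviation of the log2 value from each gene's own mean (y axis) in each library (x axis) for Fam19a2 with its 2 most similar genes (left) and Fam19a1 with its 3 (right); each point is a gene in a library. The left genes are below 0 in all WT and above 0 in all Hetero libraries, and the right genes are above 0 in sample 3 of both groups only.

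The genes beside Fam19a2 on chromosome 10 were read as a check of the locus. On the side of its start, Usp15, a deubiquitinase 67.0 kb away, had means of 1857 ± 151 and 1833 ± 193 (WT, Hetero), and Mon2, a trafficking regulator, 2585 ± 239 and 2578 ± 194 (SD, n = 3 each). Their log2 changes were -0.02 and -0.0022. Beyond its end the nearest tested coding genes lay farther off, with Slc16a7, a monocarboxylate transporter, at 1478 kb and Lrig3 at 2225 kb. Slc16a7 differed by 0.02 ± 0.18 (SE), with overlapping groups. Lrig3 had means of 41.1 ± 2.85 and 47.3 ± 2.46 (WT, Hetero, SD, n = 3 each), a difference of 0.20 ± 0.19 (SE). Its Hetero libraries all lay above its WT libraries, as in 4.4% of all tested genes. In limma the adjusted p of all 4 was 1.00.

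The third question concerned the partners on which FAM19A proteins are known to act. Of 6 receptors and partners 5 were tested, and limma called 0 higher and 0 lower, with 3 fitted higher and 2 lower. Their median log2 change was 0.02, where that of all tested genes was -0.0019 (7354 fitted higher, 7615 lower). Nrxn2 and Nrxn3, neurexin genes, were abundant and lay close to 0. Nrxn2 had means of 15291 ± 793 (WT) and 15057 ± 359 (Hetero), a log2 change of -0.02 ± 0.05 (SE). Nrxn3 had 6236 ± 592 and 6055 ± 745, a change of -0.05 ± 0.10 (SE), with SDs over 3 samples for both genes. Lrrc4b, a synaptic adhesion molecule reported to bind FAM19A5, differed by 0.02 ± 0.06 (SE).

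The receptors with proposed roles for single members were low. Gpr1 read 17.6, 27.3 and 15.7 in WT and 21.7, 31.4 and 37.1 in Hetero, overlapping groups with a log2 change of 0.56 ± 0.31 (SE). S1pr2, a sphingosine 1-phosphate receptor, had means of 76.2 ± 5.66 and 83.3 ± 3.45 (WT, Hetero; SD, n = 3 each), a change of 0.13 ± 0.15 (SE). Fpr1, a formyl peptide receptor of myeloid cells, stayed between 0 and 3.65 and was not tested.

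Other secreted proteins that bind neurexins gave a median log2 change of -0.04 over 8 tested of 9 listed genes, with 3 fitted higher, 5 fitted lower and 0 called in either direction. The neurexophilins, ligands of alpha-neurexins, differed by -0.03 (Nxph1), -0.06 (Nxph2), -0.23 (Nxph3) and 0.16 (Nxph4), each with overlapping groups. The cerebellins, which bridge neurexins to postsynaptic receptors, differed by -0.20 (Cbln1), 0.08 (Cbln2) and 0.29 (Cbln4). Cbln4 read 241, 169 and 218 in WT and 226, 254 and 282 in Hetero, so its groups overlapped as well. The C1q-like gene C1ql3 differed by -0.14, and C1ql2, which was not tested, read 7.67, 11.9 and 8.24 in WT and 5.64, 4.16 and 5.72 in Hetero. With a mean below 10, the separation of C1ql2 rests on few reads. Among tested genes, 4.32% had all Hetero libraries below all WT libraries.

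**Figure D4:**
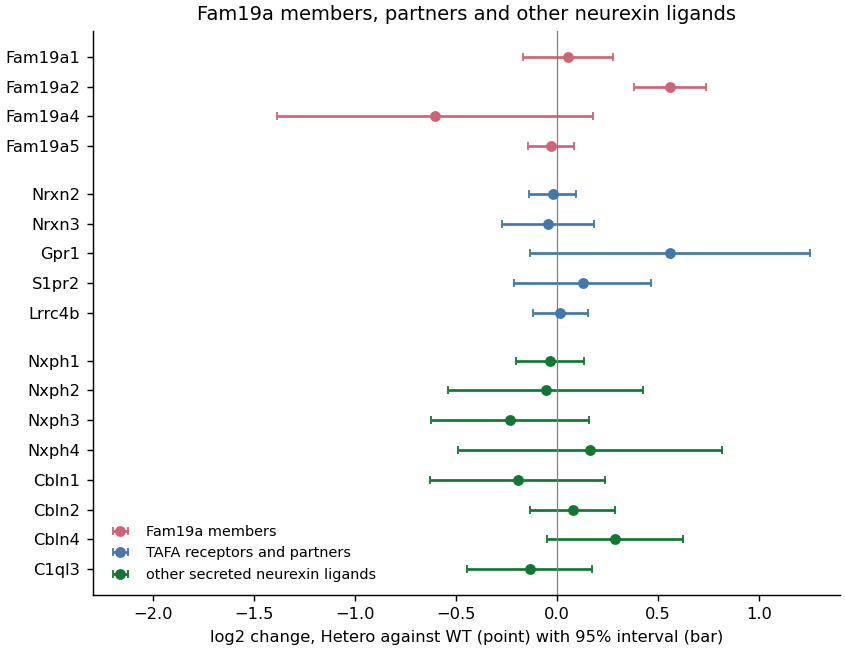
Log2 change of Hetero against WT (point, x axis) with its 95% interval (bar) from the limma fit for the 4 tested Fam19a members (red), 5 receptors and partners (blue) and 8 other secreted neurexin ligands (green). Fam19a2, the gene for which the family was chosen, lies at 0.56, Fam19a1 and Fam19a5 lie near 0 with short bars, and the long bars belong to genes of low level such as Fam19a4 and Gpr1.

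Enzymes that build and trim heparan sulfate, the chains on neurexins, had a median of -0.01 over 24 tested genes, with 11 fitted higher and 13 lower, and 0 called. Sulf2, which removes sulfate groups outside the cell, read 5657, 5459 and 5294 in WT and 4651, 4513 and 4823 in Hetero, a change of -0.23 ± 0.05 (SE; limma adjusted p = 1.00). Ndst1, a sulfotransferase that starts chain modification, differed by -0.16 ± 0.07 (SE; limma adjusted p = 1.00). In this list 2 genes had all Hetero libraries above all WT libraries and 2 had all below. Among all tested genes, 4.4% and 4.32% did. The list summed to 38563 to 38614 in WT and 37456 to 38098 in Hetero, without overlap, with a ratio of means of 0.979. Sulf2, with means of 5470 (WT) and 4662 (Hetero), differed by about as much as the whole list did. It is also on the deep-layer list above, whose sums did not overlap. Brain chemokines, the distant relatives of the family, had a median of 0.0063 over 6 tested genes, with 4 fitted higher and 2 lower and 0 called. Ccl27a differed by 0.10 and Cxcl16 by -0.23, each with overlapping groups. Other secreted synaptic proteins had a median of 0.05 over 9 genes, 6 fitted higher and 3 lower, with 0 called. Nptx1, a pentraxin that gathers AMPA receptors, had means of 9212 ± 684 and 10367 ± 659 (WT, Hetero; SD, n = 3 each), a change of 0.17, and Lgi4 differed by 0.09.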

How the data were processed

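Messenger RNA of 6 prefrontal cortex samples was measured, grouped by sample title. The authors deposited 1 table of values per gene, treated as a signal since they are not whole and called normalized counts for their nearly equal column totals. Build GRCm38, DESeq2 1.19.11, Salmon 0.11.2 and R 3.6.0 are listed in the submitters' processing notes; annotation, filters and scaling were not given in the sources used here. At most 28.1% of the low values in a library were whole multiples of 1 step, so no count test was run, and reads behind a value are estimates (value divided by that step). Identifiers were matched to GENCODE M21, 17875 of 17889. Genes with a mean of at least 10 were fitted with limma 3.58.1 in R 4.3.3 on log2(value + 1), with trend and robust fitting, two-sided, which understates changes of low genes. Benjamini-Hochberg adjustment ran over all tested genes. The fit was tested on simulated data. Coding sequences were aligned with MAFFT 7.526 and, in pairs, with Biopython 1.88. Replicates were no duplicates: the smallest median absolute log2 difference within a group was 0.095. The labels give no batch.

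The members, lists and tests were chosen with earlier results of these data known. Named genes were the members, Cyfip2, the partners and neurexin ligands, the 2 genes with the smallest p of each other list and of marker lists with separated sums, the neighbours of Fam19a2, and the 3 most similar genes of each tested member; 2 genes that the rule names and 1 sequence are not reported here, and the lists leave these genes out. Slc47a1, Ppm1j, Jun, Rpl15-ps3 and Gm10240 were named outside this rule, with their values known. Alternatives covered scaling, filter, pseudocount, fitting, a replicate block, gene length and each sample left out.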

Additional observations from a re-analysis of the deposited data

How the results depend on the processing

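The log2 change of Fam19a2 lay between 0.49 and 0.60 when 1 sample was left out, that of Fam19a1 between -0.03 and 0.14, Fam19a4 between -0.74 and -0.40, and Fam19a5 between -0.04 and -0.02. TMM rescaling, median centring, other filters and pseudocounts changed no sign of these 4; a mean of at least 50 leaves Fam19a4 out. The sample numbers were not taken as pairs. Deviations of samples with the same number correlated at -0.0050, 0.0044 and 0.23 over genes. Only the samples numbered 3 correlated best with each other, and whether they share a factor was not tested. With a replicate block, 1 gene was called higher (Jun) and 1 lower (Cyfip2) where the fit without it called 0 and 0, and the log2 change of Fam19a2 was 0.56, unaltered by construction. Leaving out 1 sample gave 0 to 1 gene higher (Rpl15-ps3, without WT sample 1) and 0 to 1 lower (Gm10240, without Hetero sample 2). None is a Fam19a gene, and all but Cyfip2 were picked for naming with their values known.

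With 5 libraries the sign-flip test cannot go below 0.0625, so no pair passes when a sample is left out; the ratios then lay between 3.52 and 3.68 for Fam19a5 over Fam19a1, 1.60 and 1.77 for Fam19a1 over Fam19a2, and 34.9 and 45.4 for Fam19a2 over Fam19a4. With coding length, Fam19a1 over Fam19a2 was 1.27 (adjusted exact permutation p = 0.0625), and Fam19a2 over Fam19a4 was 80.9, against 98.3 with the union of exons. Shares depend on the length used. With the union of exons they were 16.8% and 16.7% (WT, then Hetero) for Fam19a1, 10.1% and 14.3% for Fam19a2, and 73.0% and 68.8% for Fam19a5. With the median coding transcript they were 21.3% and 21.3%, 9.26% and 13.2%, and 69.0% and 65.2% in the same order. With coding length they were 21.3% and 20.8%, 14.0% and 19.5%, and 64.4% and 59.4%. With 1 sample left out, Fam19a1 held 18.3% to 19.8% in WT and 18.4% to 19.8% in Hetero, Fam19a2 9.43% to 9.83% and 13.4% to 13.8%, and Fam19a5 70.0% to 71.8% and 66.5% to 67.6%. List medians lay between -0.0095 and 0.06 for partners, -0.08 and 0.04 for other neurexin ligands, -0.029 and 0.021 for heparan sulfate enzymes, -0.05 and 0.05 for chemokines, and 0.03 and 0.07 for other synaptic proteins with 1 sample left out. About 9 to 18 reads limit Fam19a4 and at most 28.0 limit Fam19a3.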
